A study of Mus musculus with 35 samples.

Results

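Nodal, Tdgf1, Lefty1 and Lefty2 code for the ligand, the co-receptor and the secreted inhibitors of Nodal signalling, and the peaks around them were followed through reprogramming of mouse fibroblasts. The members are these 4 genes, taken by name, of 21627 protein-coding genes on the autosomes and the X chromosome. For each gene, all deposited peaks of 22 ChIP-seq libraries were collected over the gene and 50 kb to each side, a stretch called the window below (gene coordinates from RefSeq, GRCm38.p6). Lefty2 (gene ID 320202) lies on chromosome 1 at chr1:180893108-180899107 and Lefty1 (gene ID 13590) at chr1:180935022-180938401, 35.9 kb apart, so that their windows share 64.1 kb and are not independent. Nodal (gene ID 18119) lies at chr10:61417972-61425338 and Tdgf1 (gene ID 21667) at chr9:110939608-110946158. The annotation used gives gene bounds without exons, and the windows also hold other genes, among them Sde2 and Tmem63a around the Lefty genes, Pald1 and Eif4ebp2 around Nodal, and Als2cl, Fam240a, Lrrc2 and Rtp3 around Tdgf1.

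Acetylation of lysine 27 of histone H3 (H3K27ac), which marks promoters and enhancers in use, was mapped in 12 libraries, and binding of the transcription factor KLF4 in 10. All cells were labelled C57BL/6 x 129. Mouse embryonic fibroblasts (MEF) carried an OKSM cassette, which codes for Oct4, Klf4, Sox2 and Myc, in Col1a1 and the doxycycline-dependent activator M2rtTA in ROSA26. They were profiled without doxycycline (2 H3K27ac libraries), and after 3, 6 and 9 days in embryonic stem cell medium to which doxycycline (1 µg/ml) and ascorbic acid (50 µg/ml) were added (3, 3 and 2 H3K27ac libraries, and 2 KLF4 libraries at each day). Day 3 cells were unsorted, whereas day 6 and day 9 cells were sorted for the surface antigen SSEA1, so day and sort cannot be told apart from day 3 to day 6. V6.5 embryonic stem cells (ESC), an established line kept on irradiated feeder cells with serum and LIF, gave 2 libraries for each assay. A further 2 KLF4 libraries, labelled ESC_2I, came from V6.5 cells in the same medium with 1 µM MEK inhibitor and 3 µM GSK3 inhibitor (2i). The ESC carry no OKSM cassette, and no KLF4 library of MEF was analysed here. From day 3 to day 9 the KLF4 antibody could meet factor made from the cassette as well as from the cells' own gene, and these cannot be told apart.

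Nodal is a secreted ligand of the TGF-beta family that acts through activin receptors and the SMAD2 and SMAD3 transducers, with FOXH1 as a DNA-binding partner. Cripto, the product of Tdgf1, is a membrane-anchored co-receptor that lets Nodal bind its receptors, and the Lefty proteins block Nodal and Cripto from outside the cell. The Lefty genes are themselves targets of the pathway, which closes a negative feedback loop, and all 4 genes are known to be transcribed in mouse pluripotent cells.

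The lists differed widely in size: H3K27ac libraries held 17493 to 88347 peaks covering 9.21 to 83.5 Mb, with the fewest at day 6, and KLF4 libraries held 21129 to 34640 peaks covering 4.45 to 15.2 Mb. The median protein-coding window had 5.82 kb of H3K27ac in MEF and 4.34 kb in ESC, with 2.23, 1.14 and 4.30 kb at days 3, 6 and 9, and changes at the 4 genes are read against these medians. Read depth is unknown from peak lists, so the spread between libraries is the only measure of error. The series text calls the libraries of a group biological replicates without naming separate animals or cultures, so p-values measure the spread between these libraries. Marker genes, counted where 2 or more libraries of a stage had a peak, matched the labelled stages: H3K27ac lay over 6 of 6 fibroblast genes in MEF and over 6 of 6 pluripotency genes in ESC. Of the fibroblast list (Twist1, Twist2, Prrx1, Col1a1, Col1a2 and Thy1), 3 genes kept a peak in ESC, with a summed covered length of 1.02 to 2.52 kb against 73.9 to 75.3 kb in MEF, and Col1a2 and Thy1 had none. The summed length over the pluripotency list (Pou5f1, Sox2, Nanog, Esrrb, Zfp42 and Dppa5a) was 1.13 to 1.31 kb in MEF and 96.7 to 101 kb in ESC, against 9.47 to 10.7 kb at day 9. Endoderm genes (Gata4, Sox17, Foxa2) had no peak at days 3, 6 and 9, and in ESC 2 of 3 had one, with a summed 1.45 to 2.03 kb. Of the trophoblast genes (Cdx2, Gata3, Elf5) 1 of 3 had a peak in 2 or more libraries in MEF, 2 at day 9 (1.36 to 2.28 kb in all) and 3 in ESC (10.21 to 11.97 kb, against 2.01 to 3.33 kb in MEF). Of the epithelial genes (Cdh1, Epcam, Krt18) 1 of 3 had one in MEF (6.39 to 6.84 kb) and 3 of 3 at day 9 (26.4 to 28.8 kb) and in ESC (38.9 to 39.6 kb). Of the blood genes (Ptprc, Spi1) both had one in MEF (2.83 to 3.07 kb) and 1 in ESC (2.43 to 3.10 kb), where Ptprc had none. The part of other cells in the results below was not tested. In bulk samples, fewer cells with a mark and less of the mark per cell cannot be told apart.

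**Figure D1:**
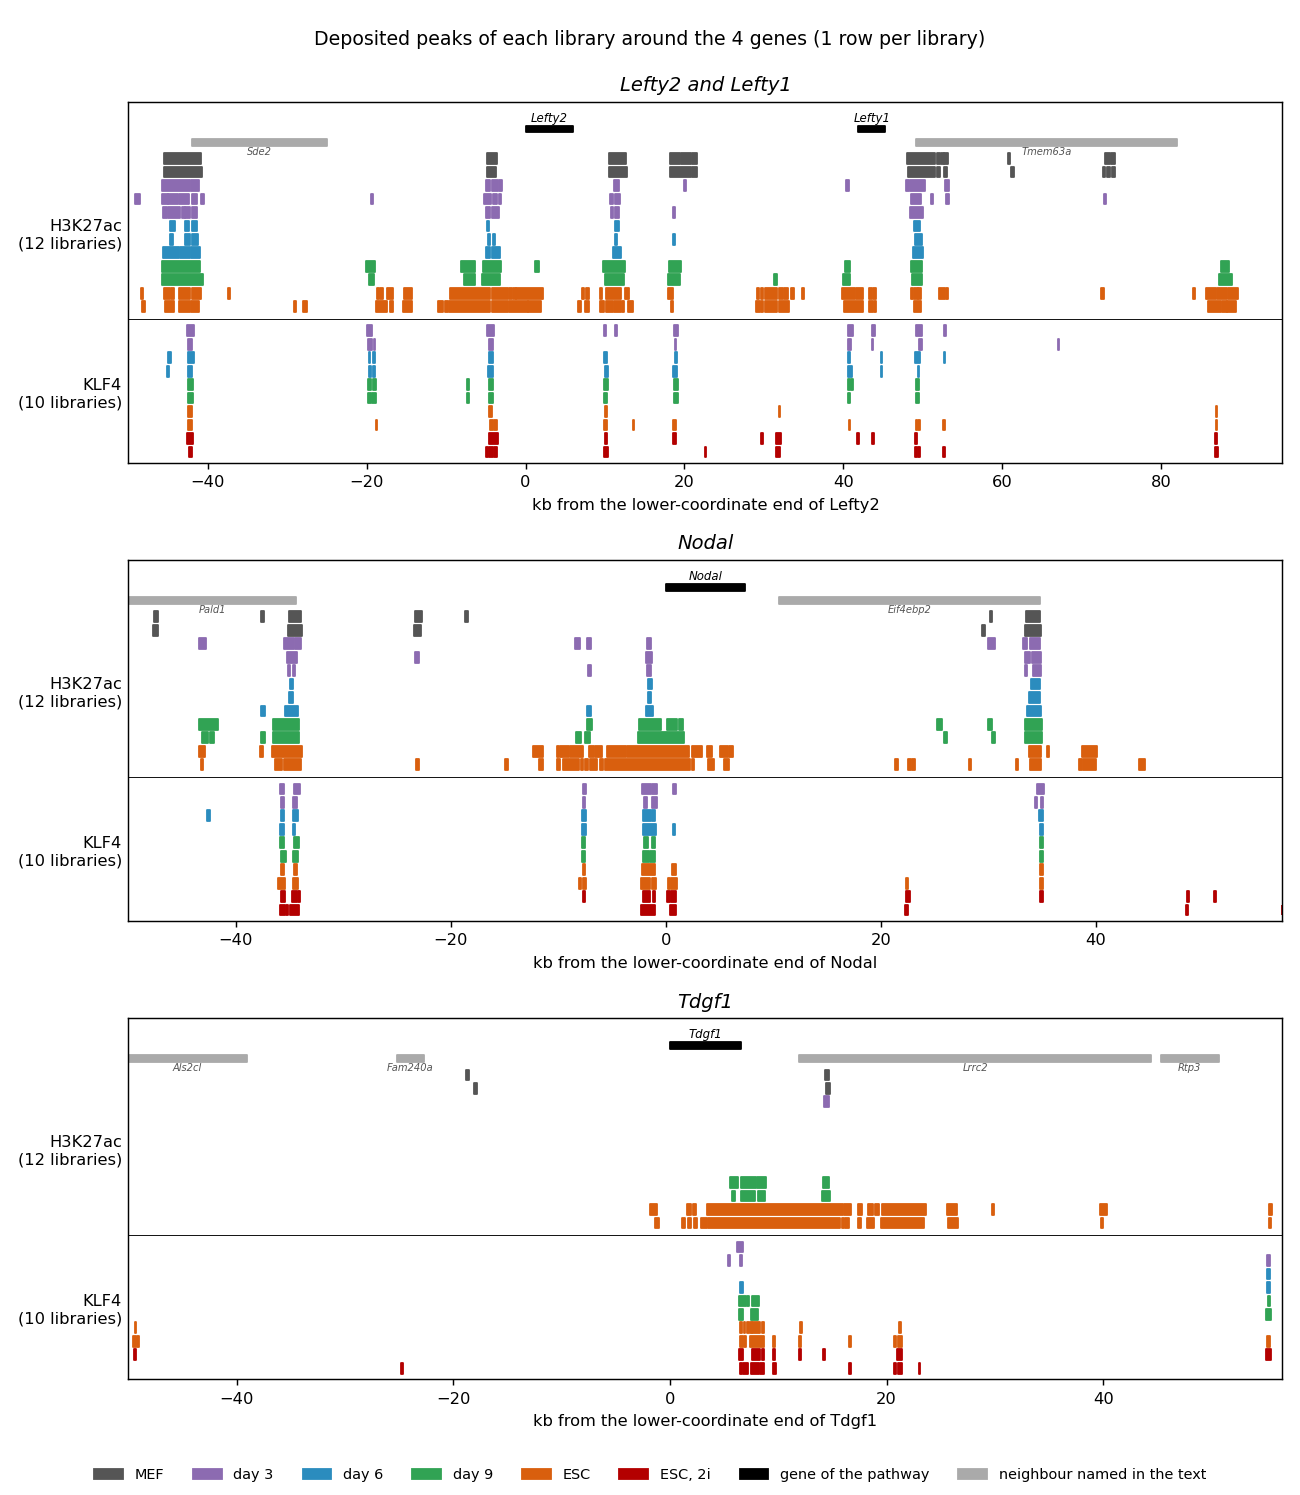
Deposited peaks around the 4 genes, with 1 row per library ordered by stage from MEF to ESC and then 2i, H3K27ac above and KLF4 below the line, against the distance in kb from the lower-coordinate end of the first gene of each panel. Black bars are the 4 genes and grey bars neighbours named in the text. H3K27ac near the start of Tdgf1 appears at day 9. KLF4 peaks near Nodal and Lefty2 are there in all 10 libraries, and the KLF4 region over the start of Tdgf1 has a peak in 9 of the 10.

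Around all 4 genes, more sequence was acetylated in ESC than in MEF, and most clearly so around Tdgf1 and Nodal. Covered length was compared on the scale log2(kb + 0.5) with limma over 19774 windows, with Benjamini-Hochberg adjustment over all of them and a threshold of 0.05. All 4 windows were called higher in ESC than in MEF, which was true of 24.9% of all windows, while 30.5% were called lower. With each library scaled to equal genome-wide covered length, 37.3% were called higher and 26.2% lower, and all 4 genes were called higher. The median difference over all windows was -0.11 on the log2 scale. MEF and ESC H3K27ac libraries all carry the same batch label, DG-3458, so that this comparison lies within 1 batch. Over the 5 stages the F test called all 4 windows, as it did 98.6% of all windows, so that the F test says little about these genes. Where the libraries of stages are said below to lie apart, for either assay, the share of all windows that do so was not counted. Such a separation is therefore not shown to be particular to these genes.

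Nodal, the ligand, had more acetylation in ESC than in MEF both next to the gene and farther out in its window. Its window held 4.204 and 4.062 kb of H3K27ac in MEF, 5.23, 2.98 and 2.00 kb at day 3, and 1.53, 1.65 and 3.87 kb at day 6. At day 9 the window held 10.36 and 11.04 kb, and in ESC 20.7 and 20.2 kb. Both ESC libraries and both day 9 libraries lay above all earlier ones, the day 3 libraries overlapped MEF and day 6, and all 3 day 6 libraries lay below both MEF libraries. The difference of ESC from MEF was 2.17 ± 0.41 on the log2 scale (SE, 2 against 2 libraries, limma adjusted p = 0.00136), and 6.11% of all windows rose by at least as much. From day 6 to day 9 the difference was 2.07 ± 0.38 (adjusted p = 0.000733), in a step in which 87.4% of all windows were called higher and the covered length of the lists grew. With libraries scaled to equal covered length this step was 0.32 for Nodal and was not called (adjusted p = 0.165). From day 9 to ESC it was 0.90 ± 0.41 (adjusted p = 0.112), and it was called without the EA-3702 library of day 6 (adjusted p = 0.036) and when scaled (0.53, adjusted p = 0.0442). This last step runs from batch EA-3702 to batch DG-3458. The EA-3702 library was the highest of its stage for Nodal at day 3 (5.23 kb) and at day 6 (3.87 kb).

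Over Nodal and 2.5 kb to each side H3K27ac was seen from day 3 on. No MEF library had a peak there. The day 3 libraries had 0.363, 0.515 and 0.328 kb and the day 6 libraries 0.411, 0.210 and 0.664 kb, each from 1 small peak on the lower-coordinate side of the gene, at chr10:61416265-61416627 in the day 3 library of batch EA-3702. At day 9 this had grown to 3.32 and 4.19 kb, and in ESC to 7.17 and 5.92 kb. Every library from day 3 on lay above MEF, and day 9 and ESC lay above days 3 and 6. In this narrow window the step from MEF to day 3 was called higher (0.85 on the log2 scale, limma adjusted p = 0.0088), as were 2.40% of 16460 such windows, while 54.7% were called lower, against a decrease in the 50 kb window of 0.33 that did not pass the threshold (adjusted p = 0.467). With no MEF peak in the narrow window, the size of 0.85 depends on the 0.5 kb added before taking logs. The merged region that these peaks form, chr10:61412294-61420266, covers the start of Nodal. It held 7559 and 7973 bp of peaks in ESC, where its best peak ranked within the top 1.65% and 0.875% of the list by the authors' −log10 p.

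Further regions inside and beside Nodal were found late. A region, made by merging overlapping peaks of 1 assay, counts as present at a stage with a peak in at least 2 of its libraries and as absent with none. Of 27 H3K27ac regions in the Nodal window 14 were present at some stage, next to 59.1% of all H3K27ac regions of the series. ESC held 11 of the 14, day 9 held 6, day 6 held 3, and day 3 and MEF held 4 each. The lists behind these counts, and behind those for Tdgf1 and the Lefty genes below, differ in size, with the fewest peaks at day 6. The ESC lists held 81971 and 81231 peaks, more than any list of days 3, 6 or 9. The share of all regions of the series present at each single stage was not counted. Of the 14, 9 were present in ESC and absent from MEF, against 29.6% of all H3K27ac regions of the series that were present at any stage, and 5 were present in ESC and absent from every other stage (21.9% of all regions). Of the same 9, 3 were also present at day 9 (5.08% of all), and 1 region outside them was present in MEF and absent from ESC (39.4% of all). Those in ESC alone included 3 within the gene body, at chr10:61420368-61421330, chr10:61421762-61422421 and chr10:61422999-61424202. A region at chr10:61410430-61412116, 5.86 kb below the gene, had a peak in no MEF library, in 2 of 3 libraries at day 3, in 1 of 3 at day 6 and in all at day 9 and in ESC. Both regions found in every library (7.77% of all) lay at the neighbouring genes: chr10:61381341-61384126 within 2.5 kb of Pald1, and chr10:61451224-61452941 within 2.5 kb of Eif4ebp2.

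Tdgf1, the co-receptor gene, went from almost no acetylation to a broad domain. Its window held 0.65 and 0.641 kb of H3K27ac in MEF, 0.508 kb in 1 day 3 library and none in the other two, and none in any of the 3 day 6 libraries. At day 9 it held 3.55 and 3.02 kb, and in ESC 21.9 and 20.8 kb. The groups from day 9 on did not overlap with any earlier one. ESC differed from MEF by 4.25 ± 0.31 on the log2 scale (SE, 2 against 2 libraries, limma adjusted p = 1.25e-06), and only 101 of the 19774 windows (0.511%) rose by at least as much. The steps from day 6 to day 9 (2.92 ± 0.28, adjusted p = 2.65e-05) and from day 9 to ESC (2.53 ± 0.31, adjusted p = 0.000111) were both called higher, the second in company with 25.7% of all windows, and both calls held with scaling to equal covered length (2.77 and 2.14). With no peak in any day 6 library, the size of the first step depends on the 0.5 kb added before taking logs. The step from MEF to day 3 was called lower (-0.86 ± 0.28, adjusted p = 0.0204), as 65.1% of windows were, and this call was lost without either MEF library or either DG-3458 library of day 3 (adjusted p up to 0.0886) and with scaling (-0.38, adjusted p = 0.343).

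The small early signal was not at the gene. Both MEF libraries and 1 day 3 library had a peak on the side of Lrrc2, at chr9:110953942-110954265 in MEF replicate 1, and each MEF library had 1 more peak 17.8 or 18.5 kb away on the lower-coordinate side, and no library of MEF, day 3 or day 6 had an H3K27ac peak within 2.5 kb of Tdgf1. At day 9 the first peaks of the gene appeared, covering 2.99 and 2.24 kb, and in ESC 6.88 and 7.22 kb. The best day 9 peak spanned chr9:110946137-110947561 in replicate 1 and chr9:110946162-110947460 in replicate 2, over or beside the start of the gene, which is read towards lower coordinates. In ESC replicate 1 a single peak of 12635 bp, chr9:110942992-110955626, ran from within Tdgf1 to Lrrc2 and ranked within the top 0.512% of the list. A second region of 4243 bp, chr9:110959050-110963292, 12.9 kb from the gene on the Lrrc2 side, was present in both ESC libraries and in no other. All 11 regions present in this window were present in ESC, and 10 of them were absent from every other stage (21.9% of all regions).

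Lefty2 and Lefty1, the feedback inhibitors, lay in windows that were already acetylated in MEF. The Lefty2 window held 15.9 kb in both MEF libraries, 9.92, 9.41 and 7.68 kb on day 3, and 3.22, 3.53 and 8.34 kb on day 6. It held 16.5 and 15.8 kb on day 9 and 31.05 and 31.58 kb in ESC. The Lefty1 window held 12.6 and 12.4 kb in MEF, 5.58, 4.68 and 4.16 kb on day 3, and 1.48, 1.79 and 3.87 kb on day 6. That window held 11.6 and 11.9 kb on day 9 and 27.3 and 24.9 kb in ESC. Both windows thus fell to day 6, returned to about their MEF length at day 9 and were longest in ESC. ESC was called higher than day 9 for Lefty1 (1.12, limma adjusted p = 0.0193), as was 25.7% of all windows. That call ended without either day 9 or either ESC library. For Lefty2 the difference was not called (0.93, adjusted p = 0.0599). Day 3 was called lower than MEF for Lefty1 (-1.30, adjusted p = 0.00329), as was 65.1% of all windows, and not for Lefty2 (-0.79, adjusted p = 0.0513). The day 6 library of batch EA-3702 was the highest of its stage for both genes. At day 9 both windows were called higher than at day 6 (Lefty2 1.71 ± 0.32, adjusted p = 0.00085; Lefty1 2.18 ± 0.29, adjusted p = 0.000163), as were 87.4% of all windows. With libraries scaled to equal covered length the step was -0.15 for Lefty2 (adjusted p = 0.399) and 0.43 for Lefty1 (adjusted p = 0.028). Day 6 was called lower than day 3 for both, as was 41.3% of all windows (Lefty2 adjusted p = 0.0327, Lefty1 adjusted p = 0.0156). That call ended for Lefty2 without any 1 of 8 of the 12 libraries, namely either of MEF, either of day 9, either DG-3458 library of day 6, the EA-3702 library of day 3 and DG-3458 replicate 1 of day 3 (adjusted p up to 0.13). For Lefty1 it ended without any 1 of 3, the EA-3702 library of day 3 and either DG-3458 library of day 6 (adjusted p up to 0.0645). With scaling to equal covered length, the direction of this step turned upward for both genes. Over all windows 36.1% were then called higher and 14.7% lower.

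The difference of ESC from MEF was 0.96 ± 0.35 for Lefty2 (SE, limma adjusted p = 0.041) and 1.03 ± 0.32 for Lefty1 (adjusted p = 0.0199), on the log2 scale with 2 against 2 libraries. As many as 21.2% and 19.8% of all windows rose by at least as much. The call for Lefty2 was lost with 6 of the alternatives tried, among them the top 50% of peaks (adjusted p = 0.18) and a window of 100 kb to each side (adjusted p = 0.0684). That for Lefty1 was lost with the top 50% of peaks (adjusted p = 0.105), with 100 kb (adjusted p = 0.309) and with peaks of q at most 0.01 (adjusted p = 0.146). Leaving out either MEF or either ESC library ended both calls, and leaving out 1 day 3 or either day 9 library that of Lefty2, with adjusted p up to 0.13 for Lefty2 and 0.0936 for Lefty1. Within 2.5 kb of the genes the contrast was sharper: Lefty2 went from none in all MEF, day 3 and day 6 libraries to 5.12 and 5.32 kb in ESC, and Lefty1 from none in MEF to 3.39 and 3.16 kb. There the differences were 3.52 for Lefty2 (adjusted p = 1.01e-06) and 2.92 for Lefty1 (adjusted p = 7.25e-06), in a fit that called 20.9% of 16460 windows higher and 33.7% lower. With MEF at 0 kb for both genes, these sizes depend on the 0.5 kb added before taking logs.

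Of the 24 H3K27ac regions present around the Lefty genes, 4 were in every library (7.77% of all regions), 19 were present in ESC and 9 in MEF, and 10 were present in ESC and absent from every other stage (21.9% of all). Those of every library included chr1:180847358-180852578 within 2.5 kb of Sde2 and chr1:180940974-180944685 within 2.5 kb of Tmem63a. Another, chr1:180883480-180890948, comes within 2.5 kb of Lefty2 and of no other protein-coding gene. Only its ESC peaks reach that near, and its peaks in MEF and at days 3, 6 and 9 lie farther from the gene. Its covered length was 1160 and 1186 bp in MEF, 1575, 1628 and 1413 bp on day 3, and 240, 475 and 1514 bp on day 6. It was 4046 and 3648 bp on day 9 and 7248 and 7253 bp in ESC. The ESC libraries were the longest, and the day 6 libraries of batch DG-3458 the shortest. Over Lefty2 itself, chr1:180890983-180895311 had a peak in both ESC libraries and in 1 of 2 at day 9. Over the lower-coordinate end of Lefty1, chr1:180932974-180935643 had a peak in 1 of 3 libraries at day 3, in none of MEF or day 6 and in all of day 9 and ESC. A strong region of ESC alone, chr1:180925023-180926226, lies 8.80 kb below Lefty1 and held 1038 and 1187 bp. The region chr1:180978802-180982746, 40.4 kb above Lefty1, was present at day 9 and in ESC only.

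**Figure D2:**
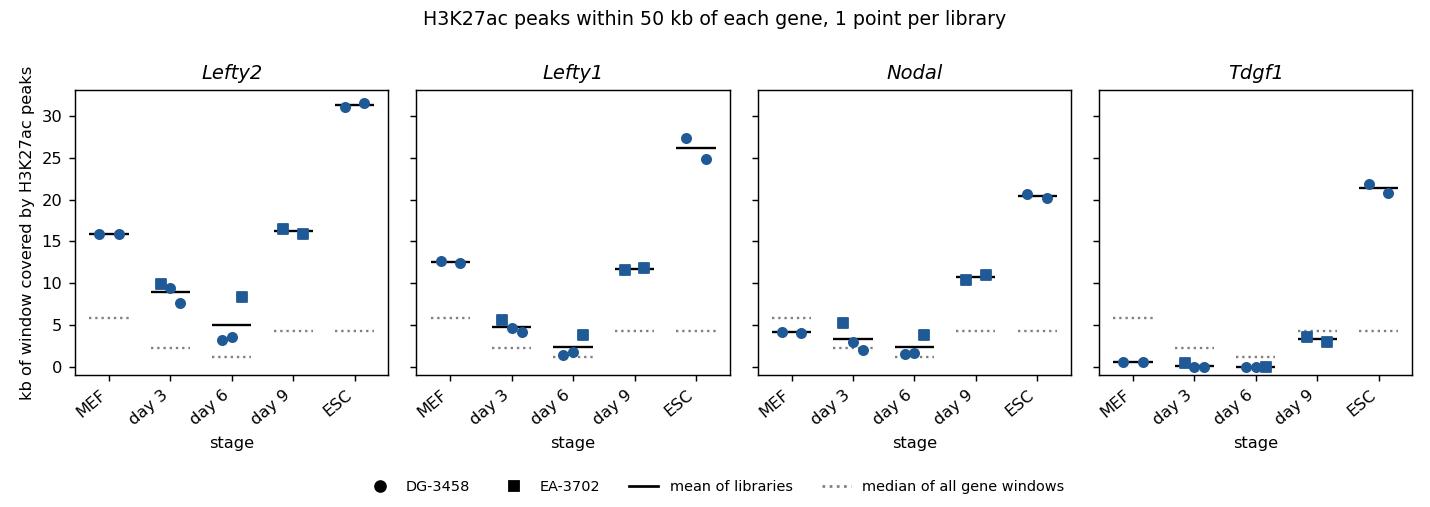
H3K27ac-covered length in kb within 50 kb of each gene, 1 point per library, by stage; marker shape gives the batch label, solid lines the mean of the libraries and dotted lines the median of all protein-coding windows. ESC libraries are the highest for all 4 genes, at 20.2 kb or more, while Tdgf1 was at 0.65 kb or less until day 6.

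The steps up to day 9 depend on how the lists are scaled. When each library's covered lengths were scaled to equal genome-wide covered length, the difference of day 3 from MEF turned from -0.79 to 0.60 for Lefty2, from -1.303 to 0.06 for Lefty1 and from -0.33 to 0.92 for Nodal, and the rise of Lefty2 from day 6 to day 9 turned to -0.15. The step from day 3 to day 6 turned upward for Lefty2, Lefty1 and Nodal. The median over all windows from MEF to day 3 moved from -0.99 to 0.07 with this scaling, that from day 6 to day 9 from 1.42 to 0.0, and that of ESC against MEF from -0.11 to 0.19. Scaled, 29.2% of all windows were called higher and 18.6% lower from MEF to day 3, 36.1% higher and 14.7% lower from day 3 to day 6, 18.7% higher and 25.4% lower from day 6 to day 9, and 22.3% higher and 30.5% lower from day 9 to ESC. ESC remained higher than MEF for all 4 genes when scaled, by 1.303 for Lefty2, 1.37 for Lefty1, 2.43 for Nodal and 4.16 for Tdgf1. H3K27ac at day 9 was profiled only in batch EA-3702 and in MEF and ESC only in DG-3458, so steps to and from day 9 also cross batches. With batch as a covariate, the median over all windows moved from 1.42 to 1.04 for day 6 to day 9. For day 9 to ESC it moved from 0.12 to 0.66. Within EA-3702 the day 6 library held 8.34, 3.87, 3.87 and 0.0 kb around Lefty2, Lefty1, Nodal and Tdgf1, and the day 9 libraries of that batch lay above it for each gene. In that batch the lists themselves went from 19.9 Mb on day 6 to 48.9 and 49.5 Mb on day 9, a larger ratio than that of the Lefty2 window.

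KLF4 was found around all 4 genes from day 3, and a change of its covered length with stage passed the test around Tdgf1 and not around the other 3. Over 18857 windows the F test over the 5 groups called the Tdgf1 window (limma adjusted p = 0.0185; 6.08% of all windows were called) and not those of Lefty2, Lefty1 or Nodal (adjusted p 0.538, 0.647 and 0.76). The F call for Tdgf1 was lost with no filter (adjusted p = 0.0526), the top 50% of peaks (0.0522), numbers of peaks (0.0514) and peaks of q at most 0.01 (0.155, where limma called 0 of 17473 windows and 2384 had an unadjusted p under 0.05). It was also lost in the fits on batches EA-3702 and DG-4040 alone, with batch as a covariate (adjusted p = 0.119) or a replicate block (0.533), in which limma called 0 of 18080 windows, with 5137 and 1522 at an unadjusted p under 0.05. Leaving out the day 6 library of EA-3702 (adjusted p = 0.0514), the ESC library of EA-2643 (0.0547) or the ESC_2I library of EA-3702 (0.075) or DG-3012 (0.0742) ended it too. No step between neighbouring stages was called for any of the 4 genes; over all windows 0.0477% were called lower from day 3 to day 6 and none higher, 0.0053% were called higher from day 6 to day 9 and none lower, and from day 9 to ESC 0.0689% were called higher and 0.191% lower. ESC was called higher than day 3 for Tdgf1 alone of the 4, which was the case for 0.705% of all windows, while 5.30% were called lower. With scaling to equal covered length 10.4% of windows were called higher and 6.31% lower, and Tdgf1 and Nodal were among those called higher.

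Tdgf1 windows held 0.49 and 0.56 kb of KLF4 peaks at day 3, 0.244 and 0.589 kb on day 6, 1.68 and 1.47 kb at day 9, 1.93 and 3.66 kb in ESC and 3.02 and 3.03 kb in ESC_2I. All libraries from day 9 on lay above all of days 3 and 6. ESC differed from day 3 by 1.63 ± 0.39 on the log2 scale (SE, 2 against 2 libraries, limma adjusted p = 0.0293), and 30 of 18857 windows (0.159%) rose by at least as much. The call was lost without a filter on windows (adjusted p = 0.0539), with the top 50% of peaks (adjusted p = 0.056), with peaks of q at most 0.01 (adjusted p = 0.132) and with 100 kb to each side (adjusted p = 0.144), and on leaving out any of 7 of the 10 libraries (adjusted p up to 0.14), the difference staying between 1.25 and 2.02. ESC libraries carry batch labels of their own, EA-2697 and EA-2643, so stage and batch cannot be told apart in that comparison. Within batch EA-3702 the values were 0.49 kb at day 3, 0.244 kb on day 6, 1.68 and 1.47 kb at day 9 and 3.02 kb in ESC_2I.

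**Figure D3:**
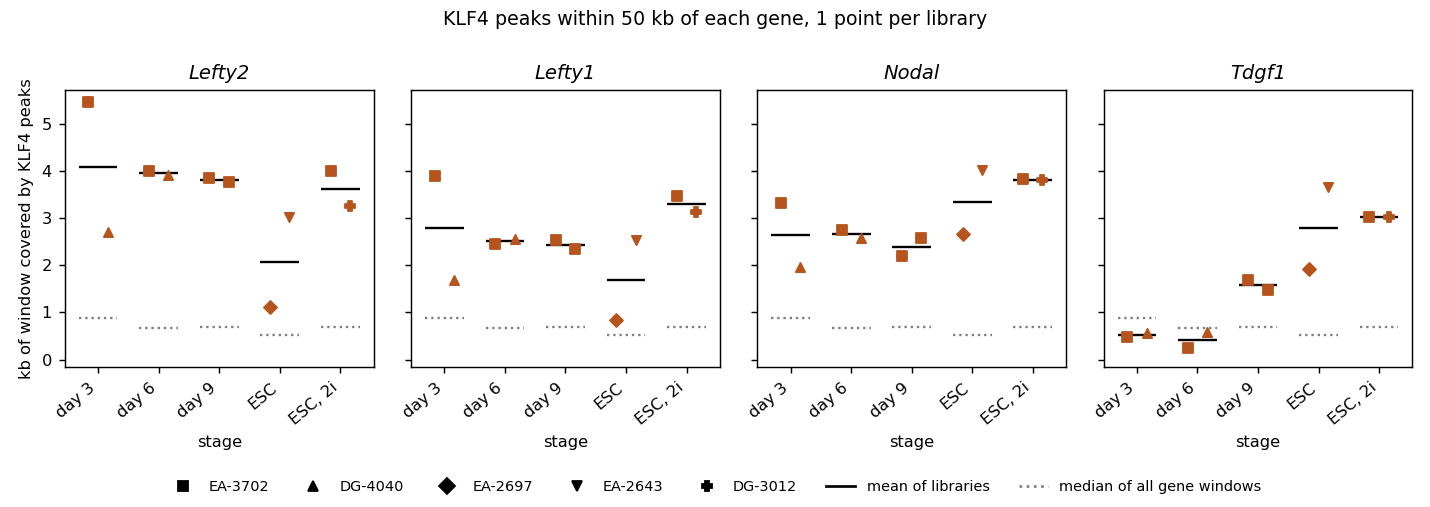
KLF4-covered length in kb within 50 kb of each gene, 1 point per library, by group; marker shape gives the batch label, solid lines the mean and dotted lines the median of all protein-coding windows. Around Tdgf1 all libraries of day 9, ESC and ESC in 2i lie above those of days 3 and 6, whereas for Lefty2, Lefty1 and Nodal the ranges of the day 3 and ESC libraries overlap.

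The KLF4 regions of Tdgf1 nearest to the gene sit on its start and just upstream. The region over the start, chr9:110945840-110946884, had a peak in 9 of the 10 libraries, missing only in 1 day 6 library. The authors' fold enrichment of its best peak was 3.25 and 3.73 at day 3 and 4.78 in the day 6 library that had it. It was 8.96 and 8.83 in the day 9 libraries, 9.50 and 6.31 in those of ESC and 13.4 and 5.67 in those of ESC_2I. Fold enrichments here and below are the peak caller's own values for single peaks and are not normalised between libraries. The next region, chr9:110947016-110948330, 0.86 kb from the gene, was absent from all 4 libraries of days 3 and 6 and had a peak in all 6 libraries of day 9, ESC and ESC_2I. Farther out, chr9:110960613-110961039, 14.5 kb from the gene and inside the acetylated region of ESC near Lrrc2, had a peak in all 4 libraries of ESC and ESC_2I and in none of the reprogramming libraries.

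The promoter of Tdgf1 is shown because the KLF4 region over its start covers it, and that of Nodal because its start became acetylated. Both are the 250 bases before the start in the gene's direction, from RefSeq (GRCm38.p6), and 2 of the 4 members matched an entry of the promoter table used. Capitals mark matches to the KLF motif GGGNGTGG on either strand; the FOXH1 motif AATNCACA, the octamer ATTTGCAT and the palindromic SMAD motif GTCTAGAC were searched as well, also on both strands, and had no match in these windows.
Tdgf1, chr9:110946159-110946408, minus strand: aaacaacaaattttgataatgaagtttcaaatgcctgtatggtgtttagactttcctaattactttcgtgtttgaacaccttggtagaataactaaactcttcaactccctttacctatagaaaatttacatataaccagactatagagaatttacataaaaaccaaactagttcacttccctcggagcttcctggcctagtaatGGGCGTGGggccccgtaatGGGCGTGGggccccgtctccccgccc
Nodal, chr10:61417722-61417971, plus strand: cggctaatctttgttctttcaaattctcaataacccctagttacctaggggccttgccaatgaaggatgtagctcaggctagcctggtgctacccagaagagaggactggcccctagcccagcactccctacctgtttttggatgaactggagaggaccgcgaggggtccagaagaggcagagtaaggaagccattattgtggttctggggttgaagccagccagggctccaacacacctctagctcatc

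The Tdgf1 promoter held the KLF motif at 2 places, 45 to 38 and 26 to 19 bases before the start, without overlap between them or with another motif. Of all 32851 promoter entries of that length, 15.9% held this motif, 3.18% the FOXH1 motif, 1.60% the octamer and 0.167% the SMAD palindrome. The Nodal stretch held none of the 4, and no KLF4 region of Nodal overlaps it. A match is a description of the letters and not evidence of a bound site.

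Around Nodal, KLF4 covered 3.33 and 1.96 kb at day 3, 2.74 and 2.58 kb on day 6, 2.19 and 2.58 kb at day 9, 2.66 and 4.01 kb in ESC and 3.831 and 3.802 kb in ESC_2I. Days 3, 6 and 9 overlapped, and the ESC libraries lay above both of day 9 and overlapped those of days 3 and 6. ESC differed from day 3 by 0.30 ± 0.39 on the log2 scale (limma adjusted p = 0.674). With libraries scaled to equal covered length that difference was 1.01 and was called higher (adjusted p = 0.00765), as were 10.4% of all windows. One region stood out by its rank, chr10:61415683-61417167, 0.80 kb from the start of Nodal on its upstream side, which had a peak in all 10 libraries, as did 11.3% of the KLF4 regions present at any stage. Its best peak lay within the top 11.3% and 6.24% of the list at day 3, 2.82% and 2.12% at day 6, 2.95% and 3.83% at day 9, 0.076% and 0.237% in ESC and 6.08% and 0.419% in ESC_2I. A region inside the gene near its start, chr10:61418368-61418979, had a peak in 1 of 2 libraries at day 3 and at day 6, in none at day 9 and in both of ESC and of ESC_2I. Its best peak had an authors' fold of 2.90 at day 3, 3.41 at day 6, 5.39 and 3.73 in ESC and 12.1 and 4.63 in ESC_2I. Another small region 7.40 kb below Nodal, chr10:61410184-61410570, had a peak in 9 of 10 libraries.

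Around the Lefty genes KLF4 was widespread, and in the fit without scaling no difference between groups passed the threshold. Lefty2 windows held 5.47 and 2.71 kb at day 3, 4.00 and 3.91 kb on day 6, 3.86 and 3.76 kb at day 9, 1.12 and 3.03 kb in ESC and 3.99 and 3.25 kb in ESC_2I. Lefty1 windows held 3.89 and 1.69 kb, 2.46 and 2.55 kb, 2.53 and 2.35 kb, 0.83 and 2.53 kb, and 3.48 and 3.12 kb in the same groups. For Lefty1 both ESC_2I libraries lay above all of day 6, day 9 and ESC, and below the higher one of day 3. The lower ESC library, of batch EA-2697, had the fewest peaks of all KLF4 lists. ESC was lower than day 3 by values that did not pass the threshold (Lefty2 -0.87 ± 0.45, adjusted p = 0.261; Lefty1 -0.63 ± 0.45, adjusted p = 0.429). Without the EA-2697 library these were -0.31 and -0.04.

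The region chr1:180888097-180889603, 3.50 kb below Lefty2, had a KLF4 peak in all 10 libraries. Its best peak was within the top 0.235% and 1.04% of the list at day 3, 0.346% and 0.359% at day 6, 0.662% and 0.881% at day 9, 3.02% and 2.45% in ESC, and 7.55% and 5.60% in ESC_2I. The authors' fold there ranged from 5.45 in 1 ESC_2I library to 27.4 in 1 day 6 library. It lies inside the acetylated region beside Lefty2 that was found in all 12 H3K27ac libraries, and both MEF libraries already had H3K27ac there. No KLF4 peak of any library overlapped Lefty2 or lay within 2.5 kb of it.

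Inside Lefty1 the KLF4 regions present were small and each was found at 1 day of reprogramming. The region chr1:180936693-180937105 had a peak in both day 3 libraries, in none of day 6, day 9 or ESC and in 1 ESC_2I library, and chr1:180937854-180938041 had one in both day 6 libraries and in no other. Beside the gene, the region chr1:180933660-180934296, 0.73 kb below the gene, had a KLF4 peak in all 6 libraries of days 3, 6 and 9, in 1 of 2 ESC libraries and in neither ESC_2I library. The authors' fold was 15.4 and 6.28 at day 3, 6.15 and 7.02 at day 6, 4.72 and 5.78 at day 9 and 2.05 in the ESC library that had it. H3K27ac overlapped this region in no MEF library, in 1 of 3 at day 3, in none at day 6 and in both libraries at day 9 and in ESC. The region chr1:180873111-180874389, 18.7 kb below Lefty2, likewise had KLF4 in all 6 libraries of days 3 to 9, in 1 ESC library and in no ESC_2I library. The opposite held for chr1:180924661-180925270, 9.75 kb below Lefty1, which had KLF4 in none of the 6 reprogramming libraries, in 1 ESC library and in both ESC_2I libraries, and for chr1:180979957-180980243, 41.6 kb above Lefty1, found in both ESC and both ESC_2I libraries only. The first of these overlaps the stretch acetylated near Lefty1 in ESC.

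Serum and 2i ESC did not differ beyond the threshold around any of the 4 genes. The difference of ESC_2I from ESC on the log2 scale was 0.78 ± 0.45 for Lefty2, 0.92 ± 0.45 for Lefty1, 0.19 ± 0.39 for Nodal and 0.15 ± 0.39 for Tdgf1 (SE, 2 against 2 libraries, limma adjusted p 0.792, 0.792, 0.909 and 0.938), and 1 of 18857 windows was called higher (0.0053%) and none lower, with 928 higher and 230 lower at an unadjusted p under 0.05. For Lefty2, Lefty1, Nodal and Tdgf1, 8.37%, 4.05%, 56.9% and 61.5% of all windows rose by at least as much. Batches were not shared between ESC and ESC_2I. The peak names inside the list labelled ESC_2I of batch EA-3702 read as ESC without 2i; the label was followed here, and without that library the differences were 0.65, 0.85, 0.19 and 0.15 for Lefty2, Lefty1, Nodal and Tdgf1. The ESC libraries moved them more: without that of EA-2697 the difference was 0.22 for Lefty2 and 0.33 for Lefty1, and without that of EA-2643 it was 1.34 and 1.51, none of which passed the threshold (limma adjusted p 0.292 or more). For Nodal and Tdgf1 the difference was below 0 without EA-2697 (-0.064 and -0.24). With 2 libraries a group, these values leave room for differences of the size seen. KLF4 regions with a peak in 2 libraries of some group numbered 13 around the Lefty genes, 8 around Nodal and 7 around Tdgf1, of 20, 14 and 14 in all (43.3% of all KLF4 regions of the series were present in some group). Of these, 1 was present in ESC_2I and absent from ESC, chr10:61466324-61466680, 41.0 kb above Nodal (5.27% of all), and none the other way round (8.61% of all). A region at chr9:110949086-110949415, 2.93 kb from Tdgf1, had KLF4 in both ESC_2I libraries and 1 of 2 ESC libraries.

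The count of KLF4 regions with H3K27ac was higher at day 9 and in ESC than before. Of the KLF4 regions present around the 4 genes, day 3 had 6 of 13 with H3K27ac of the same stage, next to 58.7% of all KLF4 regions present then in the series, and day 6 had 7 of 15, next to 45.2%. Day 9 had 14 of 16, next to 76.6%, and ESC 14 of 15, next to 72.6%, so that the share was higher at day 9 and in ESC over all KLF4 regions too. H3K27ac of MEF overlapped 6 of those of day 3, 7 of day 6, 6 of day 9 and 4 of ESC, next to 48.8%, 48.5%, 39.5% and 43.0% of all. These counts were not tested, since the regions of 1 gene are not replicates and the H3K27ac lists covered least of the genome at day 6. Around Tdgf1 the KLF4 region over the start was present at day 3, when no H3K27ac library had a peak there, and acetylation followed at day 9. Near Nodal, the upstream region with KLF4 in all libraries had H3K27ac in no MEF library and in all 3 at day 3. Where at least 50% of the KLF4 region had to be covered, the counts were 5, 3, 12 and 12. The Nodal count at day 3 then went from 3 to 2, and the region lost was this upstream one. It is 1485 bp wide, and the day 3 libraries had 0.363, 0.515 and 0.328 kb of H3K27ac there.

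**Figure D4:**
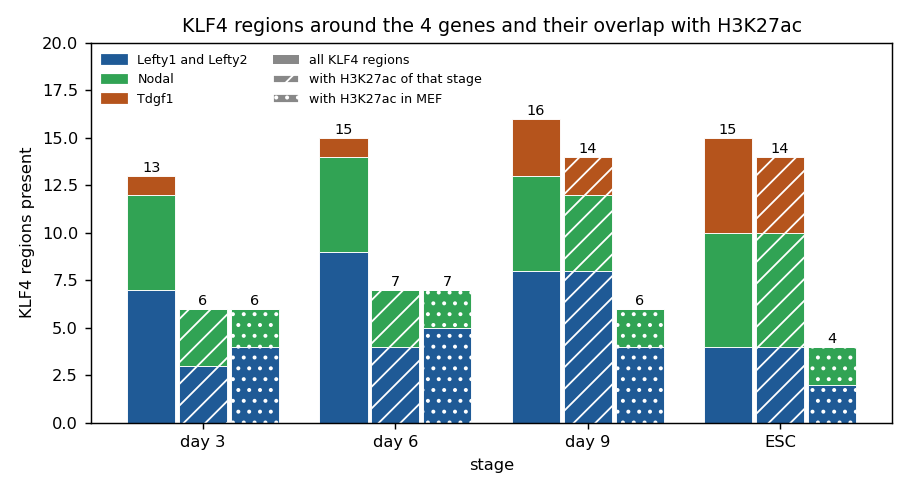
Number of KLF4 regions present (a peak in 2 libraries) around the 4 genes at each stage, all of them, those overlapping H3K27ac of the same stage and those overlapping H3K27ac of MEF, stacked by locus. The overlap with H3K27ac of the same stage was 6 of 13 at day 3 and 14 of 16 at day 9.

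Genes of the wider pathway were called in both directions. Of 25 listed genes, 7 were called higher in ESC than in MEF for H3K27ac and 10 lower, next to 24.9% and 30.5% of all windows, with a median difference of -0.31 on the log2 scale against -0.11 over all windows. Scaled to equal covered length, 9 were called higher and 6 lower, next to 37.3% and 26.2% of all windows. Acvr2b, Foxh1 and Pcsk6 were then called higher as well. The calls given below for Cfc1, Smad4, Cer1, Fst and Skil were lost (limma adjusted p 0.281, 0.109, 0.127, 0.131 and 0.0845). Calls below are those without scaling. All are calls on the 50 kb windows, which hold neighbouring genes too: Cer1 had no peak within 2.5 kb in any library, and Mixl1 had one in no MEF library and 1 ESC library. Cfc1 likewise had one in no MEF library and 1 ESC library. Its window held a mean of 0.24 kb in MEF and 0.899 kb in ESC, so the size of its difference depends on the 0.5 kb added before taking logs. Among ligands, Inhbb, an activin subunit, was higher (1.87, limma adjusted p = 0.00202) and Inhba, the other, was lower (-4.25, adjusted p = 7.63e-07), while Gdf3, which can act through the same receptors, was higher (0.89, adjusted p = 0.0442). Cfc1, which codes for a co-receptor of the same family as Tdgf1, was higher (0.89, adjusted p = 0.0357). Among transducers, Smad3 (-1.97, adjusted p = 0.000901) and Smad4 (-0.76, adjusted p = 0.0281) were lower, and Smad2 and Foxh1 were not called. The secreted inhibitors Cer1 (-0.84, adjusted p = 0.0201), Dand5 (-1.46, adjusted p = 0.00456) and Fst (-0.99, adjusted p = 0.0466) were lower. Of the receptors, Acvr1b was lower (-1.08, adjusted p = 0.00244), and of the intracellular inhibitors Tgif1 was higher (1.81, adjusted p = 0.00118) and Skil lower (-0.86, adjusted p = 0.00923). Of the convertases that process such ligands, Furin was lower (-1.70, adjusted p = 0.000502) and Pcsk6 was not called. Pathway targets of the early embryo were mixed: Eomes (1.27, adjusted p = 0.00143) and Gsc (1.36, adjusted p = 0.00111) were higher, and Mixl1 was lower (-0.997, adjusted p = 0.0117).

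From day 6 to day 9, 21 of the 25 windows were called higher for H3K27ac and none lower, next to 87.4% of all windows called higher. The median was 1.42, the same as over all windows. With scaling 6 were called higher and 7 lower, next to 18.7% and 25.4% of all windows. For KLF4, 24 of the 25 windows could be fitted, and Smad3 was the only one called between ESC and day 3 (-1.81, limma adjusted p = 0.0265). Over all windows 5.30% were called lower and 0.705% higher. With scaling 5 were called higher and Smad3 alone lower, next to 10.4% and 6.31% of all windows. An H3K27ac peak over the gene or within 2.5 kb of it was present for 20 of the 25 genes in MEF, day 9 and ESC each, next to 66.3%, 63.5% and 65.9% of all genes. Day 3 had 16 and day 6 had 14 such genes, next to 57.5% and 49.3%.

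The genes whose H3K27ac pattern over the 12 libraries was most like a member's, among 20119 genes with windows apart from the members', were named by Pearson's r of log2(kb + 0.5), as a description. For Tdgf1 these were Saa3 (r = 0.998), Otp (0.996) and Saa4 (0.996), with r over the 10 KLF4 libraries of 0.672, 0.753 and 0.886. For Nodal they were Gm31035 (0.993), Glt1d1 (0.992) and Phykpl (0.992), for Lefty2 Slc25a13 (0.995), Mex3a (0.994) and Tapbp (0.992), and for Lefty1 Mex3a (0.997), Rab25 (0.996) and Twf1 (0.996). All points share the same 12 libraries and their list sizes, and neighbouring genes such as Saa3 and Saa4 share peaks. Among the members, r for H3K27ac was 0.954 between Nodal and Tdgf1, 0.991 between the overlapping Lefty windows and 0.854 to 0.908 between Lefty2 and the other two. For KLF4 it was 0.582 between Nodal and Tdgf1 and -0.31 between Lefty2 and Tdgf1.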

How the data were processed

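The authors deposited 1 peak list per ChIP-seq library, 12 of H3K27ac and 10 of KLF4; the 13 input libraries were not analysed here. The submitters' processing notes name cutadapt 1.8.1, Bowtie2 2.2.5, deepTools 2.3.6, MACS2 2.1.1 and the build mm10, without their settings; whether an input served as control is not given in the sources used here. Each deposited list gives per peak its position, a score, a fold enrichment (ratio), a −log10 p-value and a −log10 q-value of the authors' peak caller, with no summits. The score was not used. Replicates were not pooled. Libraries follow GEO's assignment of lists to samples, although peak names inside 1 ESC_2I list read as ESC and those inside the day 6 H3K27ac lists of batch DG-3458 carry each other's replicate number.

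From these lists, covered length was computed for gene windows of 50 kb to each side (RefSeq, GRCm38.p6; Python 3.11.15, pandas 2.3.3, numpy 2.4.6, figures with matplotlib 3.10.9) and tested on log2(kb + 0.5) with limma 3.58.1 (R 4.3.3), over windows with a peak in at least 2 libraries of the assay, all groups in 1 fit without covariates. Regions are merged peaks of 1 assay with at least 1 bp of overlap. The fit was also run on simulated H3K27ac values in which some windows were changed in ESC and stages did not differ otherwise. Most real windows differed between stages, so that run gives no error rate for these data. No read counts are in the lists, so depth and its precision are unknown. The alternatives were other pseudocounts (0.1 and 2 kb), no filter, the top 50% of peaks, equal numbers of peaks, scaling to equal covered length, other windows (2.5 and 100 kb), batch, a replicate block, numbers of peaks, and leaving out each library; peaks with a deposited q-value of at most 0.01 were added after seeing the data. Named are the 4 members, their regions present at a stage (at least 2 libraries), nearest first, pathway genes past the threshold of 0.05, and the 3 genes of highest likeness per member. Some genes that this rule names are not reported here. The members and lists were chosen with earlier results of these data known.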

Additional observations from a re-analysis of the deposited data

How the results depend on the processing

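More H3K27ac in ESC than in MEF around Nodal and Tdgf1 passed the threshold under every alternative run, leaving out each library included. The Lefty2 call was lost with a pseudocount of 0.1 kb (0.98), no filter (0.96), the top 50% of peaks (0.76), equal numbers of peaks (0.54), 100 kb (0.69) and q at most 0.01 (0.81), and that of Lefty1 with the top 50% (1.05), 100 kb (0.50) and q at most 0.01 (0.91). Without 1 library the values were 0.948 to 0.972 for Lefty2 and 0.965 to 1.10 for Lefty1. The Tdgf1 KLF4 call of ESC against day 3 was lost with no filter (1.63), the top 50% (1.97), 100 kb (1.04) and q at most 0.01 (1.97), and ranged from 1.25 to 2.02 without 1 library; that of Nodal was gained by scaling (1.01). The cause was not tested.

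Directions turned, for H3K27ac, with scaling in the step to day 3 (Lefty2 0.60, Lefty1 0.060, Nodal 0.92), to day 6 (Lefty2 0.30, Lefty1 0.14, Nodal 0.67) and to day 9 (Lefty2 -0.15). With numbers of peaks the step to day 3 turned for Lefty2 (0.43) and Nodal (0.12), with 2.5 kb for Lefty1 (0.28) and Nodal (0.85), and the Nodal step to day 6 turned with 2.5 kb (0.018) and equal numbers (0.55). For KLF4 from day 3 to day 6 they turned for Lefty1 with the top 50% (0.38), equal numbers (0.37), scaling (0.34) and q (0.13), for Nodal with the top 50% (-0.063) and numbers of peaks (-0.10), and for Tdgf1 with equal numbers (0.31), scaling (0.0044) and q (0.24). From day 6 to day 9 they turned for Lefty2 with the top 50% (0.0028) and q (0.15) and for Lefty1 with equal numbers (0.012) and q (0.11). For ESC_2I against ESC they turned for Nodal with the top 50% (-0.041), scaling (-0.18), 2.5 kb (-0.078) and q (-0.093), and for Tdgf1 with scaling (-0.21), 2.5 kb (-0.088) and numbers of peaks (-0.066).

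Without 1 library, KLF4 differences ranged across 0 from day 3 to day 6 for Lefty2 (-0.42 to 0.47), Lefty1 (-0.55 to 0.46), Nodal (-0.28 to 0.36) and Tdgf1 (-0.46 to 0.088), from day 6 to day 9 for Lefty1 (-0.077 to 0.012), from day 9 to ESC for Lefty1 (-1.14 to 0.042), from day 3 to ESC for Nodal (-0.019 to 0.62), and from ESC to ESC_2I for Nodal (-0.064 to 0.45) and Tdgf1 (-0.24 to 0.54).

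H3K27ac regions present numbered 11, 7 and 4 (Lefty genes, Nodal, Tdgf1) with the top 50% of peaks, 7, 4 and 2 with equal numbers and 37 and 27 (Lefty genes, Nodal) where 1 library sufficed, and 4 for Tdgf1 with q at most 0.01. KLF4 regions numbered 6 (Lefty genes) and 4 (Tdgf1) with the top 50%, 8 and 4 with q at most 0.01, and 20, 14 and 14 where 1 library sufficed. Without 1 library the Nodal H3K27ac count was 14 to 24 (24 without ESC replicate 1) and the Tdgf1 KLF4 count 7 to 11 (11 without the EA-3702 library of ESC_2I). KLF4 regions with H3K27ac of their stage numbered 3 at day 3, 3 at day 6 and 9 at day 9 with the top 50%, and 3 at day 6 where 50% of the region had to be covered.

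Replicate numbers 1 and 2 of batch DG-3458 share only a number: deviations of same-numbered libraries correlated at -0.0145 to 0.0384 over 19774 windows. With a replicate block, ESC against MEF was 0.96 for Lefty2 (limma adjusted p = 0.0167), 1.03 for Lefty1 (0.00503), 2.17 for Nodal (5.48e-05) and 4.25 for Tdgf1 (3.63e-05). For KLF4 a block could be fitted within batches EA-3702 and DG-4040 alone, without ESC, whose batches hold no other group. With that replicate block, day 6 minus day 3 was 0.024 for Lefty2, -0.045 for Lefty1, 0.041 for Nodal and -0.19 for Tdgf1, and day 9 minus day 6 was -0.26, -0.23, -0.41 and 1.44; none was called (Tdgf1 limma adjusted p = 0.881).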
